A study of Mus musculus with 25 samples.

Results

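Carnosine treatment of wild-type (WT) mice fed a high fat high sucrose (HFHS) diet was examined in left ventricular mRNA from 10 of the 25 mice of the series, chosen by their labels as the 5 mice of the WT HFHS + Carnosine group and the 5 mice of the WT HFHS group. All 10 were male WT littermates of mice with a disrupted GPx4 allele on a C57BL6/J background, started on the HFHS diet at 8 to 10 weeks of age and kept on it for 16 weeks. The treated group also received 80 mM carnosine in the drinking water from week 7 onward. A further 5 WT mice on the control diet (WT CNTL) are given below as levels only, without a test. After the intervention the mice were fasted and received a bolus of dextrose or of saline before euthanasia, and which mouse received which is not given in the labels, so this could not be entered as a covariate.

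Carnosine is a dipeptide of beta-alanine and histidine that is concentrated in skeletal muscle and also found in the heart, where it buffers protons, chelates transition metals and forms conjugates with the reactive aldehydes that arise when lipids are peroxidised. Such aldehydes and advanced glycation end products can link collagen fibres to each other, and iron promotes the peroxidation that generates them, so the genes of iron handling, antioxidant defence and collagen maturation are those that the study's question concerns. The comparison addresses which transcripts differ between HFHS hearts with and without the supplement.

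Transcript abundances had been deposited as TPM (transcript abundance as a share of each library, corrected for transcript length, that keeps no read depth), so the number of reads behind a value is unknown and no counting error is given. TPM were summed to genes and divided by a median-ratio factor for each mouse, from 0.864 to 1.16 in these 10 mice, and are called scaled TPM. Between 11652 and 12246 genes per library had at least 1 TPM, mitochondrial transcripts took 31.3% to 43.1% of a library's TPM, and any pair of the 10 libraries correlated with Pearson's r of 0.976 to 0.990 across genes, which are not independent replicates. Fold changes are on the scale of log2(scaled TPM + 0.5), where changes of low genes appear smaller than they are, and are positive where the level was higher with carnosine. Because bulk tissue was measured, fewer cells of a type and less RNA per cell cannot be told apart in any result below.

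Differences between the groups were small across the transcriptome. Among the 11984 tested genes, 89.5% moved by less than 0.2 on the log2 scale in either direction, the median size was 0.07, and the range from the 5th to the 95th percentile was -0.23 to 0.18. The test, limma with Benjamini-Hochberg adjustment, gave 0 genes with an adjusted p under 0.05 (smallest adjusted p 0.947), while 505 genes (4.21% of those tested) had an unadjusted p under 0.05. Of these, 233 (1.94%) had a higher and 272 (2.27%) a lower level with carnosine. The higher genes were 46.1% of the 505 with median-ratio scaling, 6.20% of 387 with TPM as deposited and 60.4% of 553 with quantile normalization, so the balance of directions rests on the scaling. With each mouse left out, the number of genes with an unadjusted p under 0.05 ran from 329 to 782. It was 678 without WT HFHS replicate 1, 436 without its replicate 4 and 782 without WT HFHS + Carnosine replicate 4. List counts from such fits below are to be read against these. In 73 genes (0.609%) the 5 mice of one group did not overlap the 5 of the other, 37 of them (0.309%) higher and 36 (0.300%) lower with carnosine. The spread between mice of a group was 0.13 (median SD on the log2 scale) without and 0.14 with carnosine, and the 95% interval of a gene had a median half-width of 0.20, so that it left out a log2 change of 1 in 97.6% of genes and one of 0.5 in 86.4%. For the 1485 genes above 50 scaled TPM the half-width was 0.15, and for the 3882 genes between 1 and 5 scaled TPM it was 0.28.

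**Figure D1:**
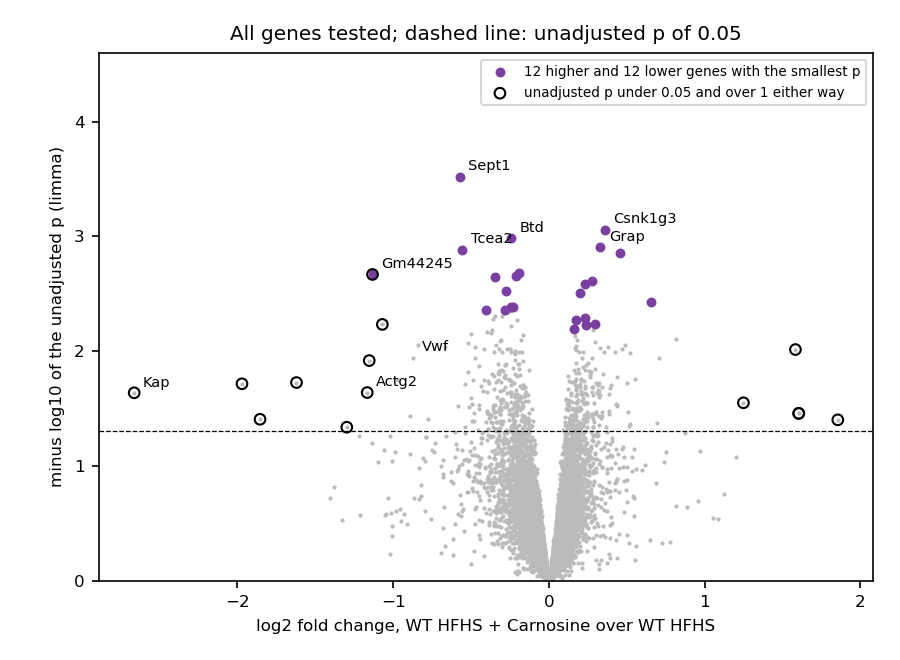
Log2 fold change of each of 11984 genes between WT HFHS + Carnosine and WT HFHS (horizontal axis) against minus log10 of the unadjusted limma p (vertical axis). Filled purple points are the 12 higher and 12 lower genes with the smallest p, and open circles the 14 genes that moved by over 1 in either direction at an unadjusted p under 0.05. Among the purple points, 1 (Gm44245, at -1.13) lies beyond a change of 1, and 0 genes had an adjusted p under 0.05.

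The genes nearest to the threshold are given with their values in each mouse, as a description of which genes led the ranking. Sept1, which encodes a septin (a filament-forming GTPase; ENSMUSG00000000486.13, chromosome 7 from 127214447 to 127233130 of GRCm38), had the smallest p of all genes. Its scaled TPM in the 5 WT HFHS mice was 2.54, 2.35, 2.55, 2.59 and 2.67, and in the 5 mice with carnosine 1.53, 1.40, 2.07, 1.17 and 1.66. Every treated mouse lay below every untreated mouse, and the WT CNTL mean of 1.77 ± 0.319 (SD, n = 5) was close to that with carnosine, 1.57 ± 0.333 (SD, n = 5). The log2 fold change had a 95% interval from -0.82 to -0.33 (adjusted p = 0.947 from limma). Btd, which encodes the biotin-recycling enzyme biotinidase (ENSMUSG00000021900.10, chromosome 14 from 31641028 to 31668579), stood at 7.37, 7.37, 6.85, 7.32 and 7.31 without and 5.97, 5.69, 6.42, 6.13 and 6.08 with carnosine. The groups of Btd did not overlap either, although their means, 7.24 and 6.06, lay closer together than those of Sept1 in proportion.

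Tcea2, a transcription elongation factor of the TFIIS family (ENSMUSG00000059540.15, chromosome 2 from 181680310 to 181688071), had scaled TPM of 4.79, 4.41, 5.46, 4.82 and 5.99 without and 3.14, 2.47, 3.50, 4.51 and 3.10 with carnosine. Here 1 treated mouse, replicate 4, reached into the range of the untreated mice, and the WT CNTL mean was 5.05 ± 0.717 (SD, n = 5), near that of WT HFHS. Npepl1, an aminopeptidase-like protein on the same chromosome, had means of 49.6 ± 2.55 without and 43.4 ± 1.31 with carnosine (SD, n = 5 each), without overlap, a log2 fold change of -0.19. Among the other lower genes of this ranking were Ece1, the enzyme that releases active endothelin (-0.28; 95% interval -0.44 to -0.12), Nrf1, the nuclear respiratory factor 1 that drives genes of mitochondrial biogenesis (-0.23; -0.37 to -0.09), and Mmp28, a secreted matrix metalloproteinase (-0.41; -0.66 to -0.16). Stk16, Arhgap21, Cuedc1 and Zbtb12 had log2 fold changes of -0.21, -0.35, -0.24 and -0.28. The levels of Mmp28 in single mice were 3.10, 3.23, 3.53, 4.00 and 3.47 without and 2.07, 2.94, 2.88, 2.71 and 1.97 with carnosine. These groups did not overlap, and the WT CNTL mean, 2.68 ± 0.348 (SD, n = 5), was within the treated range.

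Csnk1g3, a membrane-bound casein kinase 1 isoform, led the genes with a higher level. It stood at 4.42, 4.16, 4.75, 5.26 and 4.84 scaled TPM without and 5.97, 5.93, 5.63, 6.14 and 7.15 with carnosine. All treated mice were above all untreated mice, and the WT CNTL mean of 5.18 ± 0.692 (SD, n = 5) lay between the group means. Grap, an adaptor related to GRB2 (ENSMUSG00000004837.2, chromosome 11 from 61653265 to 61672784), was 7.48, 8.43, 9.63, 8.51 and 9.53 without and 11.5, 10.3, 12.1, 10.5 and 10.9 with carnosine, a log2 fold change of 0.33 (95% interval 0.16 to 0.50). The groups of Grap were again apart, with 9.64 ± 0.855 (SD, n = 5) in WT CNTL. Rbm12b1, an RNA-binding motif protein, had a log2 fold change of 0.46, Rpp38, a protein subunit of RNase P, 0.28, Smndc1, a splicing factor, 0.23, and Larp4, which binds the poly(A) tail region of mRNA, 0.20. In each of these 4 genes the 2 groups of mice did not overlap. The rest of this ranking, which were Gm5566, Arhgap5, Baz2b, Mtss1, Zfp629 and Cog8, had values from 0.16 for Cog8 to 0.66 for the predicted gene Gm5566. Every gene of the ranking had an adjusted p of 0.947 from limma, and the exact permutation p (two-sided) was 0.00794 for those whose groups did not overlap, the smallest that 5 mice against 5 can give. That value follows from the absence of overlap alone, which 0.609% of all genes tested had. Because these genes were picked by their limma p in the same data, it adds no further evidence.

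**Figure D2:**
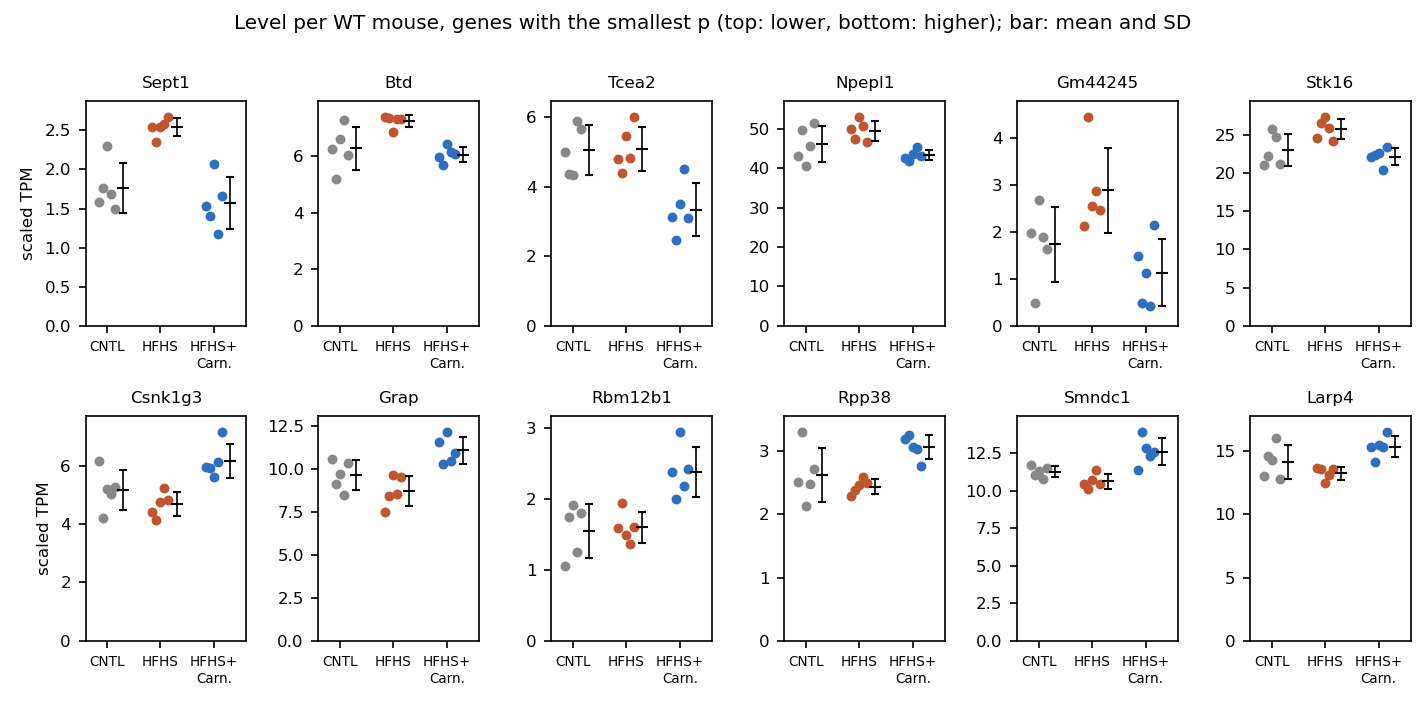
Scaled TPM per WT mouse (vertical axes, from 0) for the 6 lower (top row) and 6 higher (bottom row) genes with the smallest p, in CNTL (grey), HFHS (orange) and HFHS + Carnosine (blue), with a bar at the mean and its SD (n = 5). In Sept1, Btd, Csnk1g3, Grap and Rbm12b1 the blue and orange points do not overlap, while in Tcea2 and Gm44245 they do.

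With the added condition of a log2 fold change beyond 1 in either direction, 14 genes (0.117% of those tested) passed at an unadjusted p under 0.05, and 8 of these were processed pseudogenes, copies without introns that share sequence with a parent gene, so that their reads cannot be assigned with certainty. Processed pseudogenes numbered 281 among the genes tested, and protein-coding genes 11567, of which 6 passed. Gm10233 and Gm10171 had identical values in all mice and are not independent. Several of the 14 had mice at or near 0 in at least 1 group. Kap, which encodes kidney androgen-regulated protein, had the lowest fold change of the 14, and its scaled TPM was 0, 22.1, 0, 8.75 and 12.3 without and 0, 0.446, 0.0590, 0 and 0 with carnosine. Its groups overlapped at 0, and the exact permutation p was 0.167. Crygn, a gamma-crystallin, was 1.77, 1.64, 2.82, 3.83 and 1.65 without and 2.22, 1.07, 0.832, 0.473 and 0 with carnosine, and Zfp969, a zinc finger protein, was 0.316, 2.13, 1.01, 0.301 and 0.656 without and 3.96, 0.310, 3.91, 4.69 and 2.26 with. Gm10985 was listed at 0 in all 5 treated mice and in 2 of the untreated, with 16.9 in 1 mouse. Gm28778 was the only gene of the 14 whose groups did not overlap (1.22 to 3.02 without and 0 to 1.18 with carnosine). The other members were Gm44245, Gm11874, Gm12396, Gm6851, Gm6361, Gm4202 and Actg2, with log2 fold changes from -1.97 for Gm6851 to 1.85 for Gm6361.

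The antioxidant and iron genes that the study also measured by qRT-PCR came next. Gpx4, the peroxidase that reduces phospholipid hydroperoxides, had scaled TPM of 744, 701, 778, 601 and 734 without and 671, 734, 688, 722 and 666 with carnosine. The treated mice lay inside the range of the untreated, and the log2 fold change of -0.03 had a 95% interval of -0.18 to 0.13. Cat (catalase), Gsr (glutathione reductase) and Txn2 (mitochondrial thioredoxin) had values of -0.04, -0.04 and 0.03, with intervals from -0.18 to 0.09, -0.17 to 0.08 and -0.10 to 0.16, so that a change of 0.2 was outside each. Gpx1, the abundant cytosolic glutathione peroxidase, was 54.8, 68.2, 65.5, 76.7 and 58.7 without and 58.3, 63.1, 61.4, 49.3 and 50.8 with carnosine. These levels overlapped, and the interval of Gpx1 (-0.41 to 0.02) included 0. Gsta1, a glutathione transferase that conjugates lipid aldehydes, varied more between mice (3.72 to 10.1 without and 4.38 to 9.95 with carnosine), and its interval of -0.55 to 0.59 was correspondingly wide.

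Iron uptake and storage differed by less than the spread between mice. Tfrc, the transferrin receptor that brings iron into the cell, had scaled TPM of 10.1, 7.21, 16.9, 18.9 and 5.81 without and 26.8, 17.6, 12.5, 7.12 and 37.7 with carnosine. Its mean was higher in the treated mice, 20.3 ± 12.1 against 11.8 ± 5.82 (SD, n = 5 each), but the groups overlapped, the log2 fold change of 0.69 had an interval of -0.26 to 1.64, and the exact permutation p was 0.206. Without WT HFHS + Carnosine replicate 5, the highest of the treated mice, the log2 fold change of Tfrc was 0.41, and without replicate 4, the lowest, it was 0.99 with an unadjusted limma p of 0.027. The WT CNTL mean of Tfrc was 5.72 ± 1.70 (SD, n = 5), below both. The ferritin chains that store iron, Fth1 and Ftl1, had log2 fold changes of -0.02 (-0.17 to 0.13) and -0.18 (-0.44 to 0.08). Nos2, the inducible nitric oxide synthase, was 3.55 ± 0.390 without and 4.28 ± 1.25 with carnosine (SD, n = 5 each), with an interval of -0.16 to 0.57. Tgfb1, the ligand TGF-β1, was between 9.60 and 13.7 without and between 8.72 and 14.3 with carnosine, and Ager, which encodes the receptor RAGE, was at 0.0401 to 0.260 and 0.0741 to 0.214 scaled TPM, too low to be tested.

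**Figure D3:**
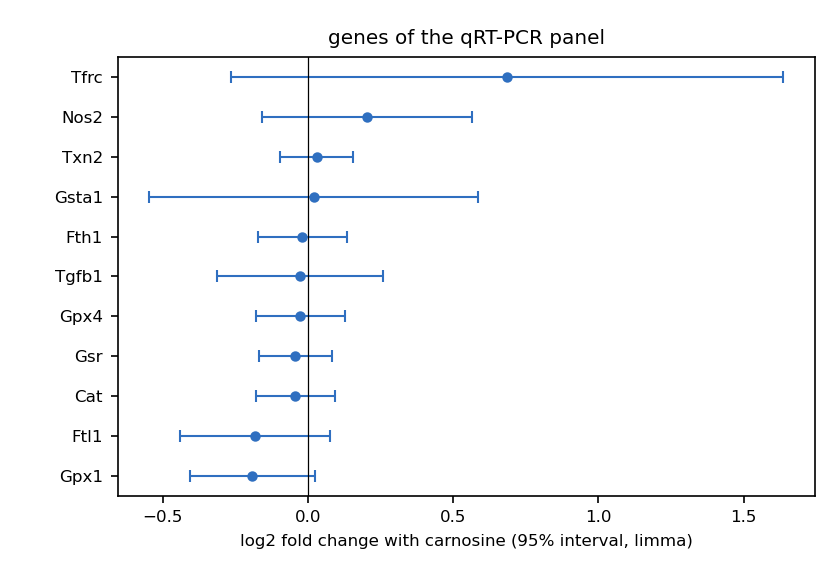
Log2 fold change with carnosine (horizontal axis) and its 95% interval from limma for the 11 tested genes of the qRT-PCR panel (vertical axis; n = 5 mice per group). All intervals include 0, and those of Tfrc and Gsta1 are the widest.

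Within the wider list of 35 iron genes, 28 were tested and 1 had an unadjusted p under 0.05, the background being 4.21%. That gene was Ireb2 (ENSMUSG00000032293.8, chromosome 9 from 54863789 to 54912530), which encodes iron regulatory protein 2, an RNA-binding protein that stabilises Tfrc mRNA and blocks ferritin translation when iron is scarce. Its scaled TPM was 7.09, 7.57, 7.43, 7.18 and 5.80 without and 8.61, 7.95, 7.75, 8.41 and 8.00 with carnosine. All treated mice were above all untreated mice, the untreated replicate 5 was far below its group, and the WT CNTL mean was 8.30 ± 0.321 (SD, n = 5). The log2 fold change of Ireb2 was 0.21 (0.04 to 0.37; adjusted p = 0.947 from limma), and it was 0.14 without that untreated mouse. The median of the iron genes was -0.02, with 9 positive and 19 negative, against a median of -0.001 and 50.4% negative over all genes tested. Genes that were looked at for the study's question after their values were seen included Aco1, the other iron regulatory protein, at -0.003, Slc40a1, the iron exporter ferroportin, at 0.12 (-0.39 to 0.62), Slc11a2, an iron importer, at -0.01, and Steap3, an endosomal ferrireductase, at -0.17 (-0.34 to 0.003). Hmox1, which releases iron from heme and had the smallest p in the lipid peroxidation and ferroptosis list, was 7.94 to 17.0 without and 4.71 to 12.3 with carnosine, a log2 fold change of -0.45 (-0.99 to 0.09). None of the 25 tested genes of that list had an unadjusted p under 0.05, and their median was 0.002, while without WT HFHS + Carnosine replicate 4 there were 1 higher and 3 lower. In that fit 782 of all 11984 genes tested had an unadjusted p under 0.05, 388 higher and 394 lower. The list also held Pebp1, a phosphatidylethanolamine-binding protein at a high level in this list, at -0.01 (-0.14 to 0.13).

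Antioxidant enzymes showed the same pattern of small values in both directions. Of the 43 tested, 18 were positive and 25 negative, with a median of -0.01, and 1 (2.33%, against 4.21% of all genes) had an unadjusted p under 0.05, Osgin1, a growth inhibitor induced by oxidative stress. Osgin1 was 3.53, 3.44, 4.13, 2.95 and 4.86 without and 2.24, 3.08, 3.12, 3.65 and 1.93 with carnosine, with overlapping groups and a log2 fold change of -0.39 (-0.74 to -0.03). With each mouse left out, 17 to 30 of the 43 were negative and 0 to 4 had an unadjusted p under 0.05 (4 without WT HFHS replicate 1), and with TPM as deposited, which moved the median of all genes to -0.07, 39 were negative. With WT HFHS replicate 4 and WT HFHS + Carnosine replicate 2 both left out, 34 were negative and 9 positive, with a median of -0.06. In that fit 3 of the list had an unadjusted p under 0.05, all lower, and 653 of all 11984 genes tested did. The superoxide dismutases Sod1 and Sod2 were at -0.003 and 0.02. Many enzymes of this list are induced through the antioxidant response element, to which the transcription factor Nrf2 (gene Nfe2l2) binds. Its core, TGACNNNGC, read on either strand and in a window of 250 bases before to 50 bases after the RefSeq transcription start (GRCm38.p6), was found in 10 of the 38 list genes with a window (26.3%) and in 14.0% of all 27025 genes with a window. A match is only a string of letters and says nothing about binding in these hearts. The 3 windows below are shown as examples of the 10, because Gclm, Txnrd1 and Prdx1 are textbook targets of Nrf2 and hold the core upstream of the start. Capitals mark the core, which lies on the minus strand in each and is printed as GCNNNGTCA on the plus strand. The printed stretches, each the core with 24 bases on either side, are chr3:122245399-122245455, chr10:82859090-82859146 and chr4:116685442-116685498.
Gclm: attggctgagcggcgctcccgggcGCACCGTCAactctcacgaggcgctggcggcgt
Txnrd1: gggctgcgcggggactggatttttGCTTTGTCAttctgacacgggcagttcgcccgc
Prdx1: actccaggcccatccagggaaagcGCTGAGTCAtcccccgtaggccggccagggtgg

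Gclm, the modifier subunit of the enzyme that limits glutathione synthesis, had scaled TPM of 19.1, 19.9, 19.8, 16.0 and 21.0 without and 13.6, 12.8, 19.5, 27.4 and 19.4 with carnosine, and a log2 fold change of -0.09 (-0.48 to 0.29). The treated mice were more spread than the untreated, on both sides of them. Txnrd1, the cytosolic thioredoxin reductase, was at 0.08 (-0.07 to 0.22) and Prdx1, a peroxiredoxin, at 0.13 (-0.02 to 0.29). Over the 10 genes with the core, the values ran from -0.56 for Gsta3 to 0.13 for Prdx1, and the lowest unadjusted p was 0.0901.

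Genes that make, move and degrade carnosine did not separate the groups. Of 19 listed, 12 were expressed enough to be tested, 7 positive and 5 negative, with a median of 0.04, and 0 had an unadjusted p under 0.05. Without WT HFHS + Carnosine replicate 5, 5 were positive and 7 negative, with a median of -0.03. With TPM as deposited, 4 were positive and 8 negative, with a median of -0.02. Carns1, which encodes carnosine synthase and was named after its values were seen, was 8.98 ± 0.475 without and 9.41 ± 0.996 with carnosine (SD, n = 5 each). Cndp2, the cytosolic dipeptidase that splits carnosine, was 19.0, 17.5, 17.3, 17.6 and 17.0 without and 16.6, 17.6, 16.9, 18.3 and 16.2 with carnosine, overlapping, with an interval of -0.16 to 0.07. Slc6a6, the taurine and beta-alanine transporter, was at 0.04 (-0.18 to 0.26), and Carnmt1, the carnosine N-methyltransferase, at 0.22 (-0.04 to 0.48). The dipeptidase Cndp1 was below the filter, at a mean of 0.0575 and 0.0686 scaled TPM.

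Aldehyde-clearing enzymes were abundant and differed little. None of the 32 tested had an unadjusted p under 0.05, 13 were positive and 19 negative, and the median was -0.02. Aldh2, the mitochondrial aldehyde dehydrogenase, was 276, 275, 257, 256 and 321 without and 241, 319, 239, 318 and 211 with carnosine. Of its treated mice, 3 were below the untreated range and the other two near its top, and its log2 fold change was -0.08 (-0.33 to 0.18). Akr1b3, aldose reductase, was at -0.02 (-0.11 to 0.08). Aldh1a1, a cytosolic aldehyde dehydrogenase, had the smallest p of the list, with 24.8, 30.3, 28.0, 24.0 and 25.8 without and 15.1, 23.3, 21.0, 30.6 and 12.9 with carnosine. In Aldh1a1, 4 treated mice were below all untreated mice and replicate 4 was above all of them, and the interval was -0.85 to 0.002.

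Collagen chains, the substrate of cross-linking, were described next, together with the enzymes that modify them. Of 21 collagen chains tested, 0 had an unadjusted p under 0.05, 9 were positive and 12 negative, and the median was -0.06. Without WT HFHS replicate 4 the median was 0.10, with 14 positive and 7 negative, and without WT HFHS + Carnosine replicate 4 it was 0.11, so its sign rested on single mice. Col4a1 and Col4a2, the basement membrane chains at the highest level, were at 0.21 (-0.25 to 0.67) and 0.17 (-0.29 to 0.63). Col4a1 was 87.4, 101, 106, 152 and 89.4 without and 135, 94.6, 138, 83.4 and 182 with carnosine, with overlap and a wide spread in the treated mice. The fibrillar chains Col1a1, Col1a2 and Col3a1, named after their values were seen, had log2 fold changes of -0.17 (-0.89 to 0.56), -0.23 (-0.71 to 0.26) and 0.12 (-0.60 to 0.84), so each interval held a change of 0.5 in at least 1 direction. Col27a1, which had the smallest p of the list, was at -0.26 (-0.55 to 0.02).

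Enzymes and chaperones of collagen maturation had 9 positive and 17 negative members of 26 tested, a median of -0.04 (0.02 without WT HFHS replicate 4, with 17 positive and 9 negative) and 0 members with an unadjusted p under 0.05. Tgm2, tissue transglutaminase, was 118, 132, 144, 149 and 149 without and 121, 130, 153, 163 and 139 with carnosine, and its interval ran from -0.17 to 0.23. P4hb, the subunit shared by the prolyl hydroxylases, was at -0.03 (-0.15 to 0.10). Loxl3, a lysyl oxidase-like enzyme that starts cross-links and had the smallest p of the list, was 2.08, 2.66, 1.75, 4.21 and 2.67 without and 2.01, 2.27, 1.96, 1.46 and 2.13 with carnosine. Its log2 fold change was -0.33 (-0.72 to 0.07), and the groups overlapped, with the untreated replicate 4 standing highest and a log2 fold change of -0.17 without it. Its relatives Loxl1 and Loxl2, named after their values were seen, were at -0.05 (-0.56 to 0.45) and 0.16 (-0.54 to 0.85), and Lox itself was below the filter, at a mean of 1.06 and 0.747 scaled TPM.

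Matrix glycoproteins and turnover genes were shifted further, with 25 of 34 tested negative and a median of -0.21 against -0.001 over all genes. Without WT HFHS replicate 4 the median was -0.05, with 19 negative. At an unadjusted p under 0.05 there were 2 members (5.88%, against 4.21% of all genes). The count was 0 in either direction without WT HFHS replicates 2, 4 or 5 or WT HFHS + Carnosine replicate 1. There was 1 lower member, Smoc1, a secreted calcium-binding protein (0.559, 1.90, 1.86, 4.79 and 1.62 without and 0.566, 1.15, 0.929, 0.682 and 1.03 with carnosine), and 1 higher, Lamb1, a basement membrane laminin chain (25.8, 25.3, 21.9, 25.3 and 24.6 without and 30.8, 25.8, 26.9, 24.7 and 34.5 with). The groups overlapped in both genes, and for Smoc1 the log2 fold change went from -0.78 to -0.48 without the untreated replicate 4. Lamb1 had a log2 fold change of 0.20 (0.01 to 0.40). Dcn and Sparc, the members at the highest level, encode the proteoglycan decorin and a collagen-binding glycoprotein and were at -0.20 (-0.55 to 0.16) and 0.05 (-0.31 to 0.41).

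TGF-β signalling genes, which control matrix synthesis, had 27 of 35 tested negative and a median of -0.13 (-0.07 without WT HFHS replicate 4, with 22 negative). There were 2 members with an unadjusted p under 0.05 (5.71% of those tested, against 4.21% of all genes), both lower, and 1 to 5 with each mouse left out (5 without WT HFHS replicate 1, and 1 without WT HFHS replicates 2 or 4 or WT HFHS + Carnosine replicates 1, 3 or 5). Bmp4, a ligand of the family, was 10.0, 8.81, 7.11, 11.6 and 7.75 without and 7.66, 7.61, 7.11, 6.72 and 4.68 with carnosine, and Id3, a target of BMP signals, was 33.0, 42.6, 36.6, 45.2 and 41.2 without and 30.2, 34.0, 34.0, 38.7 and 33.0 with. Both genes overlapped between the groups, with log2 fold changes of -0.39 (-0.72 to -0.07) and -0.22 (-0.41 to -0.02). Ltbp4, which anchors latent TGF-β in the matrix, was at -0.24 (-0.52 to 0.03), and Eng, the endothelial co-receptor endoglin, at -0.15 (-0.33 to 0.03). In the AGE-RAGE and inflammation list, 1 of 32 tested (3.12%, against 4.21% of all genes) had an unadjusted p under 0.05, Vcam1, an adhesion molecule for leukocytes (5.85, 9.05, 6.90, 10.7 and 6.77 without and 6.16, 7.34, 5.68, 5.27 and 5.54 with carnosine). The groups of Vcam1 overlapped, its log2 fold change was -0.34 (-0.66 to -0.02), or -0.23 with an unadjusted limma p of 0.10 without WT HFHS replicate 4, and the median of the list was -0.04. Hmgb1 and Vegfa, its members at the highest level, were at 0.03 and 0.05.

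**Figure D4:**
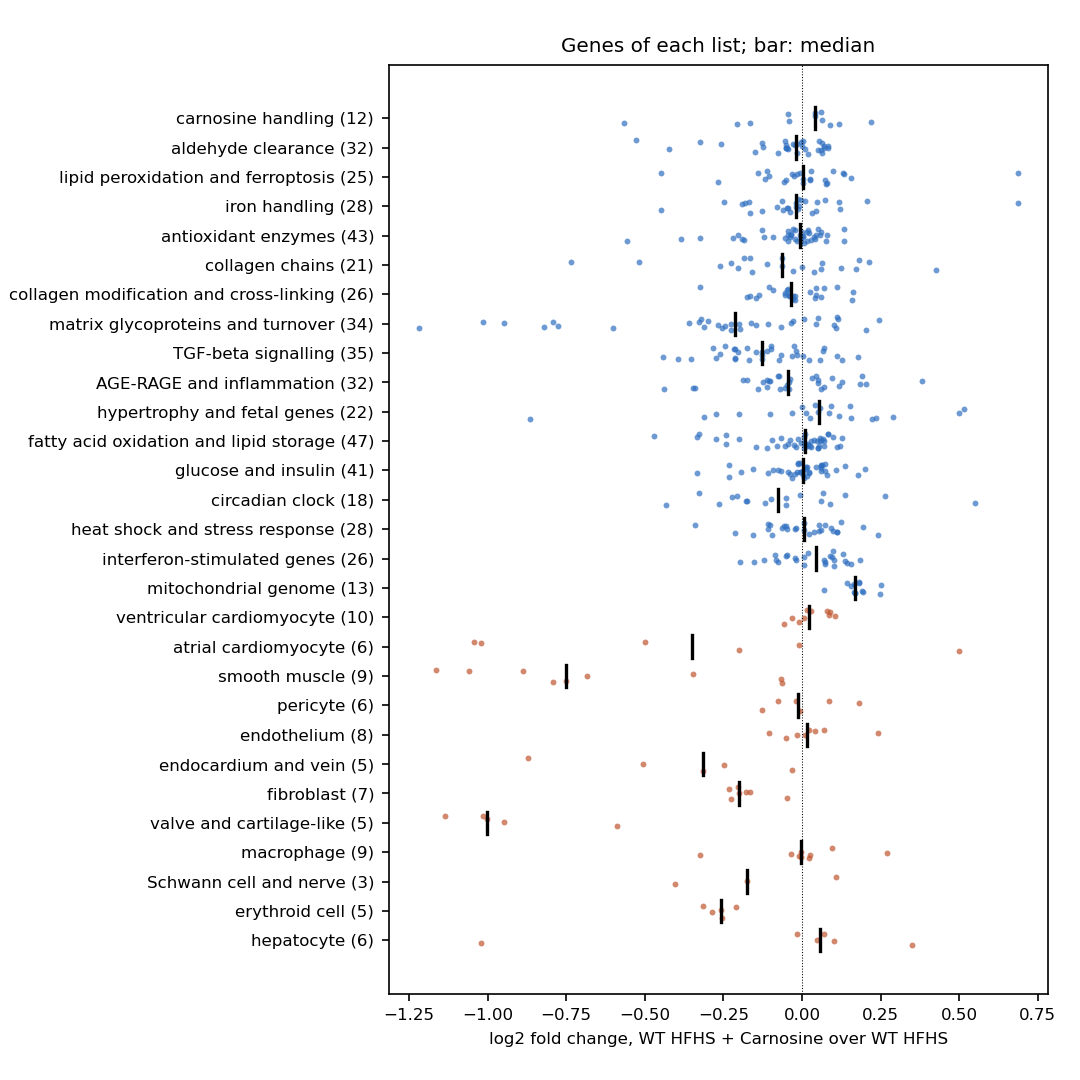
Log2 fold change with carnosine (horizontal axis) of each tested gene in the pathway lists (blue) and cell type marker lists (orange) named on the vertical axis, with the number tested in parentheses and a bar at the median. Most pathway medians lie within 0.1 of 0, the matrix and TGF-β medians are at -0.21 and -0.13, and the medians of smooth muscle and valve markers are at -0.75 and -1.0.

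Several marker lists of other cell types were also mostly negative and are given beside the matrix genes for that reason. All 9 smooth muscle markers were negative (median -0.75, and -0.45 without WT HFHS replicate 4), and their summed scaled TPM was 237, 326, 294, 699 and 351 without and 209, 285, 321, 234 and 220 with carnosine, against 210 to 254 in WT CNTL. The untreated replicate 4 stood highest, and the range of the other 4 untreated mice overlapped that of the treated. Actg2, the enteric smooth muscle actin, was the 1 of these 9 with an unadjusted p under 0.05 (0.844, 4.03, 1.56, 6.99 and 3.39 without and 0.388, 1.69, 1.86, 0.909 and 0.492 with carnosine), the background for lower genes being 2.27%. That count was 0 to 6 with each mouse left out, with 0 without WT HFHS replicates 2 or 4 or WT HFHS + Carnosine replicates 1 or 5 and 6 without WT HFHS replicate 1 or WT HFHS + Carnosine replicate 3, and it was 7 with all 25 mice in the fit. Smtn, the marker at the highest level, was at -0.07 (-0.19 to 0.06). All 5 tested markers of valve and cartilage-like cells were negative as well, with a median of -1.0 (-0.32 without that mouse), and their sum was 15.5 to 167 without and 14.5 to 39.7 with carnosine, against 14.3 to 156 in WT CNTL. Cytl1, the valve marker at the highest level, was at -1.13 (-2.34 to 0.07). Their part in the matrix and TGF-β results was not tested. Acta2, Comp, Fmod, Dcn and Lum stand in both a matrix and a marker list, so the lists are not independent.

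Vein and endocardium markers included 2 members with an unadjusted p under 0.05 of 5 tested, both lower, the background for lower genes being 2.27%. There were 4 without WT HFHS replicate 1, where the median of the list went from -0.31 to -0.51, and 1 with all 25 mice in the fit. Nr2f2, the transcription factor of venous identity (ENSMUSG00000030551.14, chromosome 7 from 70351944 to 70366735), was 6.04, 6.73, 5.75, 6.19 and 5.89 without and 5.37, 4.66, 5.52, 5.16 and 4.70 with carnosine, without overlap. Its log2 fold change was -0.25 (-0.40 to -0.09) and the WT CNTL mean 5.07 ± 1.68 (SD, n = 5). Vwf, von Willebrand factor, was 11.5, 27.8, 31.2, 42.3 and 25.5 without and 14.3, 18.9, 15.6, 10.3 and 11.2 with carnosine. In Vwf the untreated replicate 1 lay among the treated mice and the other 4 above them, and the WT CNTL mean was 12.0 ± 4.57 (SD, n = 5). Ephb4, a receptor kinase of veins at the highest level of this list, was at -0.03 (-0.14 to 0.08). Fibroblast markers were negative in 7 of 7 (median -0.20, and -0.08 without WT HFHS replicate 4), with Gsn, gelsolin, at -0.23 (-0.61 to 0.14), and their sum was 1012 to 1691 without and 916 to 1522 with carnosine.

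Markers of ventricular cardiomyocytes, endothelium, pericytes and macrophages had medians near 0. Ventricular cardiomyocyte markers had a median of 0.02 with 7 of 10 positive, general endothelium 0.02 (Egfl7 at 0.04), pericytes -0.01 (Rgs5 at 0.09) and macrophages -0.002 (C1qa at -0.03), and the tissue was ventricular by its defining markers, with Myl2 at 10411 to 13520 scaled TPM without and 10800 to 13035 with carnosine. The sign of the ventricular median turned with the scaling, to -0.05 with TPM as deposited and -0.06 with quantile normalization, where 2 markers, one of them Myl2 (-0.16), were lower at an unadjusted p under 0.05. Atrial markers, by contrast, were summed to 595 in WT HFHS + Carnosine replicate 2 and to 92.8 to 128 in the other treated mice, against 31.5 to 280 in the untreated and 130 to 4638 in WT CNTL. WT CNTL replicate 3 was the highest of its group in both the atrial (4638) and the valve sum (156), and it is included in the WT CNTL means. The atrial list had 1 positive and 5 negative members and a median of -0.35, which was -1.50 without WT HFHS + Carnosine replicate 2 and 0.12 without WT HFHS replicate 1. The positive member was Nppa, the natriuretic peptide at the highest level of the list, at 0.50 (-0.32 to 1.32). Among lists with few tested markers, the members at the highest level were Cfd for adipocytes (-0.99; -2.10 to 0.12), S100a9 for neutrophils (-0.44; -0.90 to 0.03, with S100a8, the other tested member, at 0.38) and Wt1 for epicardium (0.15; -0.05 to 0.35). Ighm for lymphocytes was at -0.05 (-0.26 to 0.16), Cox8b of the brown adipocyte list at 0.02 (-0.17 to 0.21) and Tnni2 for skeletal muscle at 0.06 (-0.33 to 0.45), with Mylpf, the other tested member, at -0.29. S100a8 and Mylpf were named after their values were seen. Erythroid markers, led by the beta-globin Hbb-bs, had a median of -0.26 with 5 of 5 negative (-0.04 with 4 of 5 without WT HFHS replicate 5), sums of 3024 to 7568 without and 2508 to 4073 with carnosine, and 0 members with an unadjusted p under 0.05. Apoa2, an apolipoprotein listed as a hepatocyte marker, had an unadjusted p under 0.05 at low levels (0.845 to 1.31 without and 1.17 to 1.83 with carnosine), and Alb, the defining gene of that list, was at 0.05 (-0.66 to 0.75). Of the list members named for an unadjusted p under 0.05, Osgin1, Smoc1, Lamb1, Bmp4, Id3, Vcam1, Actg2 and Gsk3b did not pass it in at least 1 limma fit with a mouse left out, while Ireb2, Nr2f2, Vwf and Apoa2 passed in each of those fits. With TPM as deposited Ireb2 and Apoa2 did not pass (unadjusted limma p of 0.248 and 0.0625), and with all 25 mice in the fit Nr2f2 and Apoa2 did not (0.0982 and 0.699).

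**Figure D5:**
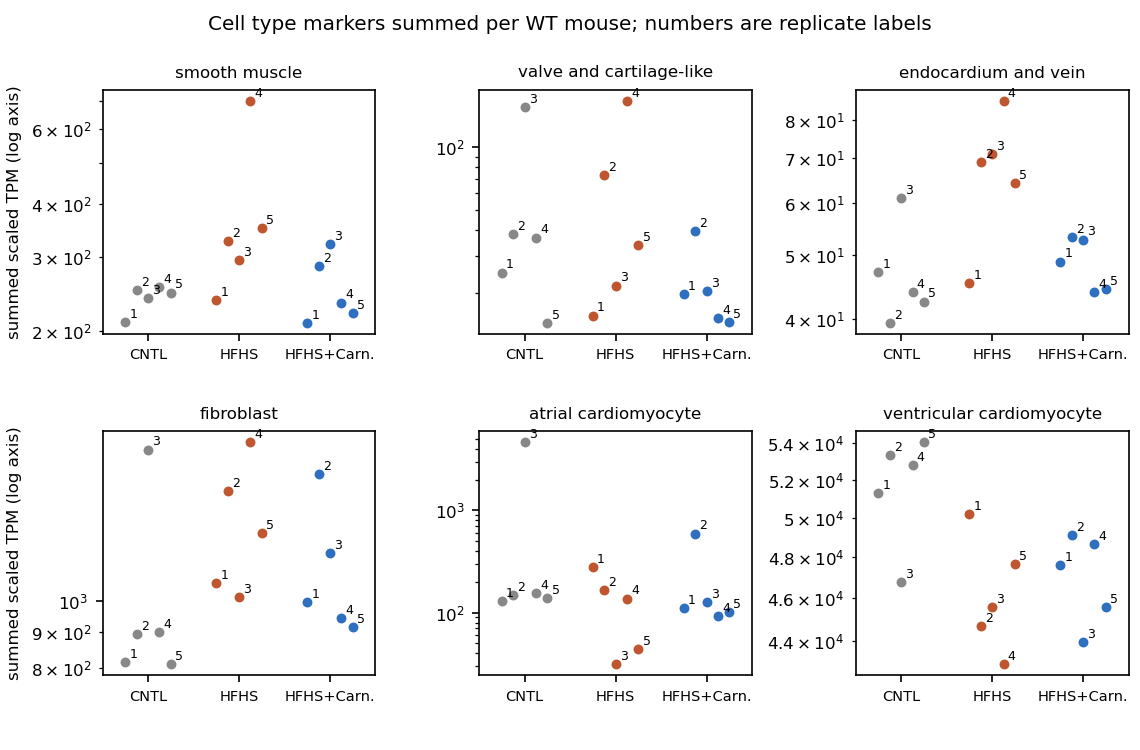
Summed scaled TPM of 6 marker lists (vertical axes, log scale) per WT mouse, in CNTL (grey), HFHS (orange) and HFHS + Carnosine (blue), with replicate labels beside the points. HFHS replicate 4 is highest of its group for smooth muscle (699), valve (167) and fibroblast (1691) markers, and HFHS + Carnosine replicate 2 is highest of its group for atrial markers (595).

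Metabolic genes had small values in both directions. In the fatty acid oxidation and lipid storage list, 0 of 47 tested had an unadjusted p under 0.05 and the median was 0.01. Without WT HFHS + Carnosine replicate 4 there were 3, all lower, in a fit where 782 of all 11984 genes passed, 394 of them lower. The median was -0.02 without WT HFHS replicate 2 or 4. It was -0.04, with 34 negative and 13 positive, without both WT HFHS replicate 4 and WT HFHS + Carnosine replicate 2. Fabp3, the cardiac fatty acid binding protein, was at -0.003 (-0.15 to 0.15), Lpl, lipoprotein lipase, at 0.01 (-0.19 to 0.20), and Cd36, the fatty acid translocase, at 0.11 (-0.03 to 0.25). Of 41 glucose and insulin genes, 1 (2.44%, against 4.21% of all genes) had an unadjusted p under 0.05, Gsk3b, the kinase that inhibits glycogen synthase (12.5, 15.6, 12.8, 14.7 and 13.3 without and 16.3, 13.8, 15.0, 15.8 and 17.5 with carnosine). Its groups overlapped, with a log2 fold change of 0.18 (0.004 to 0.35), and the glycolytic enzymes Gapdh and Aldoa (ENSMUSG00000030695.16) were at -0.003 (-0.15 to 0.15) and -0.02 (-0.15 to 0.12).

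All 13 protein-coding genes of the mitochondrial genome were positive, with values from 0.07 to 0.25 and a median of 0.17, and 0 of them had an unadjusted p under 0.05. With TPM as deposited 12 were positive, the median was 0.10 and 1 had an unadjusted p under 0.05. With quantile normalization, which gives genes of the same rank the same value in every mouse, 7 were positive and 6 negative with a median of 0.004. Without WT HFHS replicate 2, whose mitochondrial share of TPM was 31.3%, the lowest of the 10 libraries, the median was 0.07 with 2 negative. The subunits of cytochrome c oxidase at the highest level, mt-Co1 and mt-Co2, were at 0.17 (-0.14 to 0.48) and 0.07 (-0.29 to 0.43). The gene with the smallest p among them, mt-Nd5, a subunit of complex I, was 16414, 12037, 15412, 13109 and 14156 without and 16279, 16847, 15754, 14648 and 16770 with carnosine, overlapping between the groups (0.18; -0.03 to 0.40).

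Stress and contractile genes completed the survey. In the hypertrophy and fetal gene list, 16 of 22 tested were positive with a median of 0.05, and 0 had an unadjusted p under 0.05. With TPM as deposited, 10 were positive and 12 negative, with a median of -0.02. Myh6, the adult alpha-myosin heavy chain, was at -0.03 (-0.21 to 0.14), Atp2a2, the sarcoplasmic calcium pump, at 0.05 (-0.08 to 0.18), and Fhl1, a LIM protein that rises in hypertrophy, at -0.27 (-0.56 to 0.01). Heat shock genes had a median of 0.01, and Cryab and Hspb7, small heat shock proteins of muscle, were at 0.01 and -0.05, with Hspb6 at -0.11 (-0.23 to 0.02). Interferon-stimulated genes had a median of 0.04, with Ifi27 at 0.13, Bst2 at 0.10 and Xaf1 at -0.20. Circadian genes had a median of -0.08 with 12 of 18 negative, and of -0.03 with 11 negative without WT HFHS + Carnosine replicate 5. Per2, a repressor of the clock, was 6.67, 7.44, 7.85, 6.17 and 6.25 without and 5.15, 5.37, 5.96, 6.85 and 2.54 with carnosine, and Dbp, an output of the clock, was 75.2, 57.6, 62.3, 55.6 and 48.8 without and 86.2, 68.2, 44.2, 39.8 and 34.1 with. Tef, a clock output gene, was at -0.26 (-0.60 to 0.07). The treated replicate 5 was lowest of all 10 mice in Per2 and Dbp, and the time of day at which each mouse was killed is not given in the labels. With each mouse left out, the number of members with an unadjusted p under 0.05 ran from 1 to 4 in the iron list, 0 to 5 in the matrix list, 0 to 4 in the glucose list, and 0 to 3 in the AGE-RAGE, circadian, heat shock and interferon lists. The highest count came without WT HFHS + Carnosine replicate 4 for the iron, glucose, AGE-RAGE and circadian lists, without its replicate 2 for the matrix list, without WT HFHS replicate 1 for the heat shock list and without WT HFHS replicate 4 for the interferon list. Over all 11984 genes tested, these 4 fits gave 782, 688, 678 and 436 genes in that order, against 505 with all 10 mice.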

How the data were processed

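Left ventricular polyA RNA had been sequenced from 25 mice with a stranded TruSeq protocol, and the 10 WT mice on HFHS with or without carnosine were compared, with 5 WT CNTL mice as levels. The authors deposited TPM for 119215 transcripts per library. The submitters' processing notes name kallisto 0.43.1, sleuth 0.30.0 and GRCm38, whereas the paper's methods give a STAR and DESeq2 pipeline for gene counts, whose test cannot be applied to TPM. The deposited table also lists a transcript length, which was not used. Columns were matched to mice by the library name in the header and groups by the labels, which do not say that mice with one replicate number were related.

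From the TPM, 116772 transcripts were summed to genes of GENCODE release M21, scaled by median ratios (11879 genes) and log-transformed as log2(scaled TPM + 0.5). The 11984 genes whose mean over the 25 mice reached 1 entered limma 3.58.1 in R 4.3.3 (empirical Bayes with a mean-variance trend) on the 10 mice, with Benjamini-Hochberg adjustment. Single genes were compared by two-sided exact permutation. The test was checked on simulated data. TPM keeps no depth, so no counting precision can be given.

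The groups, gene lists and tests were chosen with earlier results of these data known. The rule for named genes takes the 12 genes of the study's qRT-PCR, the 12 higher and 12 lower genes with the smallest p, all genes that moved by over 1 on the log2 scale at an unadjusted p under 0.05, and per list the members with an unadjusted p under 0.05 and those at the highest level, or the member with the smallest p where none passed. As alternatives, the pseudocount was set to 0.1, the filter was dropped or raised to 5, the scaling was dropped or replaced by quantile normalization, transcripts were taken one by one, a replicate block or array weights were added, all 25 mice were fitted, each mouse was left out, and both mice with high smooth muscle or atrial markers were left out together. All genes that the rule names are given except 1 marker gene, which is not reported here.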

Additional observations from a re-analysis of the deposited data

Results flagged for a closer look

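In 14 of 276 groups of 5 values searched (named genes and summed markers), 1 mouse stood far from the other 4. The measure was the gap of that mouse to the nearest mouse over the range of the group, with 0.71 as the critical value. Gap and range were taken on the log2 scale used for the fold changes. Ratios taken directly on the scaled TPM printed above differ from these and can fall on the other side of the critical value. Chance alone flags about 1 in 20 groups, which is 13.8 here. Low values of a WT HFHS mouse were found for Btd in replicate 3 (0.879), Ece1 in replicate 1 (0.786), Ireb2 in replicate 5 (0.752), Lamb1 in replicate 3 (0.723), Hmgb1 in replicate 2 (0.796) and the pericyte markers in replicate 4 (0.776). Low values of a mouse with carnosine were found for Sparc in replicate 4 (0.717), Ighm, an immunoglobulin heavy chain, in replicate 4 (0.759), Bmp4 in replicate 5 (0.731), Tef, a clock output gene, in replicate 5 (0.799) and Egfl7, an endothelial gene, in replicate 2 (0.721). On this log2 scale, high values were found in WT HFHS + Carnosine replicate 2 alone, for Kap (0.825), atrial markers (0.829) and Schwann cell and nerve markers (0.747).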

How the results depend on the processing

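Under each alternative limma gave 0 genes below an adjusted p of 0.05. The number with an unadjusted p under 0.05, 505 of 11984 as reported, was 1115 of 25881 without a filter on low values, 311 of 8102 with a minimum mean of 5 and 1007 of 23704 when transcripts were tested singly, so these counts follow the number tested, and it was 329 to 782 with each mouse left out. It was lowest without WT HFHS + Carnosine replicate 5 and highest without WT HFHS + Carnosine replicate 4. The number that also had an absolute log2 fold change over 1, 14 as reported, was 2 with a minimum of 5, 145 for transcripts and 9 to 25 with each mouse left out. The number without overlap, 73 as reported, was 119 without a filter, 44 with a minimum of 5, 40 with TPM as deposited, 385 with both mice of high smooth muscle or atrial markers left out and 120 to 269 with each mouse left out, where a group of 4 overlaps less easily. With the replicate number as a block, 362 genes had an unadjusted p under 0.05, 15 with a change over 1. The deviations of same-numbered mice correlated at 0.04, -0.07, 0.10, -0.28 and -0.13. Such correlations cannot show whether these mice shared a cage, day or batch, which the labels do not give. No pairing was used. Of 119 named genes in the fits, 34 changed the sign of their log2 fold change under at least 1 alternative. TPM as deposited moved the median over all genes to -0.07.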
